A study of Homo sapiens with 6 samples.

Results

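The ZNF zinc finger genes of human chromosome 19 were followed in HepG2 cells, a human hepatoma line, over a day of exposure to an extract of the plant Scutellaria baicalensis (ESB in the labels). The genes were chosen by name and position alone: every probe that is not an array control, whose gene name in the scanner files begins with ZNF and a number and whose coordinate lies on chromosome 19. This rule gave 301 probes of 192 genes, out of 41000 probes and 17487 named genes with a usable probe on the array. A usable probe was left for 191 of the 192 genes, since the one probe of ZNF85 was flagged by the scanner software and dropped. Well above background on at least 3 of the 6 arrays were 173 of them, and these are the genes followed over time. Some go by newer names now, which are used here: ZNF228 is ZNF112, ZNF342 is ZNF296, ZNF499 is ZBTB45 and ZNF702 is the pseudogene ZNF702P.

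The study held 6 one-colour Agilent arrays, 1 per group, all of HepG2 cells in culture. The first was hybridised with RNA of control cells and the other 5 with RNA of cells given the extract at 100 µg/ml, sampled after 1, 3, 6, 12 or 24 h. The labels state neither a time nor a vehicle for the control, and its place at the start of the time course is an assumption. No group had a replicate, so differences at one time carry no p-value, and the 5 differences share their control array. HepG2 is 1 established line, and what it shares across all 6 arrays is shared by control and treated cells alike.

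Most of these genes encode C2H2 zinc finger proteins with a KRAB domain, in which an array of fingers joined by a conserved linker reads a DNA sequence and the KRAB domain recruits the corepressor TRIM28. TRIM28 in turn brings the histone methyltransferase SETDB1 and the HP1 proteins, and many targets of this system are transposable elements. The genes arose by repeated tandem duplication and stand in clusters on chromosome 19, so that neighbours often have near-identical finger repeats, and probes placed in those repeats can bind RNA of several genes.

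That likeness is visible in the array's own probes. Of the 301 member probes, 38 probes of 31 genes shared a run of at least 20 bases with a probe of another gene. The finger linker was searched on the given strand as codons for threonine, glycine, glutamate, lysine and proline with the last base of each codon free, and stood in 17 of 301 member probes (5.65%), against 6 of 362 probes of ZNF genes of other chromosomes (1.66%) and 13 of 40337 other probes (0.0322%). The following 7 probes are shown because lower values described further on rest on them. Each is 60 bases, written 5′ to 3′ as the scanner files give it, with the bases that lie in a run of 20 or more shared with another gene's probe in capitals.
ZNF493: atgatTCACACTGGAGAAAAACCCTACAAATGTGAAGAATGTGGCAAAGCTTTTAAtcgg
ZNF254: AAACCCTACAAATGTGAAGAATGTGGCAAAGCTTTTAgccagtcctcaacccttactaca
ZNF675: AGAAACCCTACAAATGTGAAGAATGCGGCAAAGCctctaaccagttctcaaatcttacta
ZNF100: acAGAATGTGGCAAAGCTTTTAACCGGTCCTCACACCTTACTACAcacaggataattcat
ZNF429: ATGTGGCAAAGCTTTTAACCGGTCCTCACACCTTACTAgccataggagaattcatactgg
ZNF430: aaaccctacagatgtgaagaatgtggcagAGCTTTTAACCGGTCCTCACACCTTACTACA
ZNF681: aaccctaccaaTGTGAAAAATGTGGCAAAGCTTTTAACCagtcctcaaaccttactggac
The ZNF493 probe shared runs with probes of 17 other genes or unnamed transcripts, over 51 of its bases. The ZNF430 probe shared 31 bases, with the probes of ZNF100, ZNF429 and ZNF66.

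Levels are given below as log2 of the processed signal minus the array's 75th percentile, and a difference is the treated level minus the control level of the same probe. Levels of different genes are not set against each other, since each probe has its own response. The error of a single difference, estimated from pairs of probes of 1 gene over all genes, was an SD of 0.354, 0.451, 0.775, 0.675 and 0.686 in the order of the 5 times, and it leaves out variation between cultures. The arrays differed in brightness. Their 75th percentile was 693 units of signal on the control array, then 983, 1700, 139, 373.8 and 1460 in the order of the times, and 160 member probes were well above background at 6 h against 225 to 269 on the other arrays. At 6 h only 125 of the 173 genes could therefore be compared with the control. All 9 hepatocyte markers checked were well above background on all 6 arrays. Of the 4 fibroblast genes COL1A1 and COL3A1 were so on none, DCN on 2 and PDGFRB on 5. Of the 4 blood genes LYZ and CD79A were so on all 6, CD3E on 5 and PTPRC on 1, and of the 3 endothelial genes VWF on all 6, PECAM1 on 4 and CDH5 on none. The part of array brightness in the differences was not tested.

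The chromosome 19 genes as a group sat slightly above the control at 3 h and at 24 h. At 3 h their median difference was 0.29, with quartiles of 0.00 and 0.55 (n = 172), and 128 of 172 genes lay above 0 (74.4%, against 45.6% of all genes). Over all 13373 genes measured at 3 h the median was -0.05. At 24 h the median was 0.30, with quartiles of -0.08 and 0.70 (n = 171), against a median of 0.01 over all genes. On that array 125 genes of the group lay above 0 (73.1%, against 50.8% of all genes). Each median rests on 1 pair of arrays. The shift was not seen at every probe brightness. Leaving out 15 genes with shared probe sequence described further on, 18 genes had a control level at or above the array's 75th percentile. Their medians were -0.19 at 3 h and -0.10 at 24 h. The 140 genes below it had 0.33 (n = 139) and 0.46 (n = 138). Of the 15 left out, the 9 at or above it had 0.25 and 0.04, and the 6 below it 0.13 and -0.22. In RNA of a whole culture, fewer cells making a transcript and less of it per cell cannot be told apart. At 1 h the order was turned. The median was -0.18 (n = 170), and the median of all genes was -0.06. Only 53 genes of the group lay above 0 (31.2%, against 43.8% of all genes).

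ZNF genes of the other chromosomes had medians of -0.13, 0.12 and 0.22 at 1, 3 and 24 h, each between that of the chromosome 19 ZNF genes and that of all genes. Above 0 at these times lay 41.1%, 58.7% and 62.3% of them. The other genes of chromosome 19 went with neither, at 0.12, -0.06 and -0.05. At 6 h and 12 h the sets lay close together, with medians of 0.45 and 0.28 for the chromosome 19 ZNF genes, 0.41 and 0.27 for ZNF genes elsewhere, 0.48 and 0.29 for other genes of chromosome 19 and 0.36 and 0.24 for all genes. The upward shift of all genes on those arrays is part of each value. Across the scalings tried, the median of the chromosome 19 genes minus that of all genes lay between 0.23 and 0.34 at 3 h and between 0.20 and 0.33 at 24 h. At 6 h it ran from 0.09 to 0.95, the highest with the normexp background correction, with 0.34 for quantile and 0.38 for cyclic loess normalization. At 12 h it was 0.03 in the main scaling and 0.39 with normexp.

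**Figure D1:**
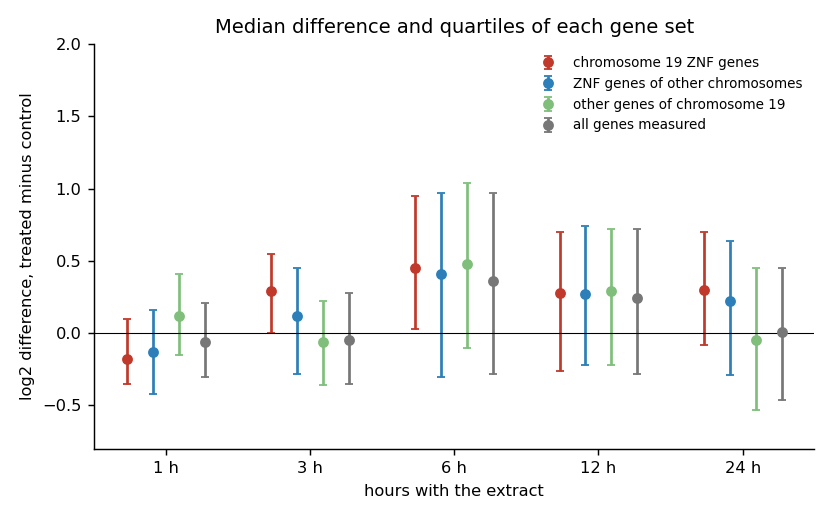
Points are the median log2 difference, treated minus control, of 4 gene sets at each time, and bars run from the lower to the upper quartile over genes. The chromosome 19 ZNF genes stand above all genes at 3 h (0.29 against -0.05) and 24 h (0.30 against 0.01), with quartile ranges that overlap at every time.

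Few genes of the group were 2-fold apart from the control early on. At 1 h, 1 gene was at least 2-fold higher and 2 were lower, where 2.24% and 0.664% of all genes were. At 3 h, 10 of 171 genes were at least 2-fold higher (5.85%, against 3.25% of all genes) and 2 were lower (1.17%, against 2.93%). At 24 h, 17 of 171 were higher (9.94%, against 7.29% of all genes) and 7 lower (4.09%, against 9.25%). At 6 h, 28 of 125 were higher (22.4%, against 22.9% of all genes) and 13 lower (10.4%, against 10.1%). At 12 h, 22 of 160 were higher (13.8%, against 13.0%) and 13 lower (8.12%, against 7.80%). In this scaling the shares at 6 h and 12 h were close to those of all genes.

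These splits moved with the scaling, and at 6 h and 12 h so did their distance from all genes. With the normexp background 57 genes were higher and 7 lower at 6 h, where 20.5% and 16.7% of all genes were. At 12 h it gave 59 and 4, against 19.4% and 4.55% of all genes, and at 3 h and 24 h 1 and 1 (1.28% and 2.64%) and 4 and 6 (4.25% and 6.93%). At 6 h quantile normalization gave 30 higher and 12 lower (14.4% and 11.7% of all genes) and cyclic loess 35 and 13 (16.7% and 11.9%). At 12 h these gave 20 and 14 (8.37% and 8.85%) and 24 and 13 (9.53% and 8.20%). In the authors' deposited table the genes higher and lower were 3 and 2 at 3 h (2.47% and 2.31% of all genes), 15 and 14 at 12 h (9.70% and 7.22%) and 7 and 7 at 24 h (5.79% and 8.94%). With the median of all genes taken off they were 19 and 17 at 6 h (12.3% and 16.3%) and 12 and 21 at 12 h (6.68% and 11.9%). With the percentile over probes well above background on all 6 arrays they were 20 and 16 at 6 h (13.9% and 14.9%) and 13 and 19 at 12 h (7.69% and 10.9%). At 24 h they were 26 and 6 with quantile normalization (8.60% and 7.98%) and 28 and 5 with cyclic loess (8.92% and 7.56%). Over these scalings 5 to 7 genes of the group were 2-fold lower at 24 h, where 6.93% to 9.44% of all genes were.

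No gene of the group had a slope over time past the threshold in limma's test over all 13618 genes, where the smallest Benjamini-Hochberg adjusted p among the 173 was 0.296; over all genes tested 0 (0.00%) passed. At an unadjusted p under 0.05, 16 lines sloped upward and 5 downward in the group, against 3.94% and 5.93% of all genes tested. An upward line, with no test, was fitted to 120 of 173 genes (69.4%), against 60.1% of all genes. A model with a bend in time passed for none of the 173 after adjustment by limma (smallest adjusted p = 0.77), with 6 at an unadjusted p under 0.05 against 5.80% of all genes. Without the 6 h and 12 h arrays, the dimmest, 4 genes of the group passed in limma's test: ZNF71, ZNF345, ZNF57 and ZNF428. In that fit 634 of the 13618 genes passed (4.66%), and only 4 arrays and 2 residual degrees of freedom remained.

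ZNF71, a KRAB zinc finger gene of the run nearest the end of the long arm, had the lowest 24 h difference of the group. Its level was -1.22 in the control and -1.64, -2.10, -5.15, -5.10 and -4.74 at 1, 3, 6, 12 and 24 h. Each treated array lay below the control, by 0.42 at 1 h and 0.88 at 3 h, and the last 3 lay far below. At 6 h and 12 h the probe was not well above background, so only approximate bounds are given there. In the main background correction they were at least 4.30-fold lower and at least 14.1-fold lower. Such bounds depend on that correction, since ZNF345, at a 12 h level of -4.56, changed sign there with normexp. At 24 h it was again well above background, and the difference was -3.52. The fitted change over the course was -4.44 ± 0.91 (SE of the slope, 6 arrays, 1 per time; limma adjusted p = 0.296). Without the 6 h and 12 h arrays it was -3.62, with a limma adjusted p of 0.00692. ZNF71 had 1 probe on the array, so no second probe bears on these values.

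ZNF345, a zinc finger gene read by 1 probe, was also below the control throughout. Its control level was -2.21, and its treated levels were -2.98, -3.51, -5.30, -4.56 and -4.49 in order of time. The differences were -0.77 and -1.30 early and -2.36 and -2.28 late. At 6 h it was not well above background, with an approximate bound of at least 2.16-fold lower in the main background correction. At 12 h the sign depended on the background correction, at 0.22 with normexp. The pseudogene ZNF702P was -1.22, -0.77 and -2.03 at 1, 3 and 24 h, and was not well above background at 6 h and 12 h. ZNF431 was -1.52 at 12 h (0.15 with normexp) and -0.70 at 24 h. ZNF135 was 0.23, -0.12, -0.78 and -0.48 at 1, 3, 12 and 24 h, and was not well above background at 6 h.

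ZNF57 and ZNF557 lay above the control on every treated array. ZNF57 had a level of -1.72 in the control, -1.33 at 1 h and -0.08, -0.34, -0.40 and 0.19 from 3 h on. From 3 h every treated array stood at least 1.31 above the control, and the differences were 1.64 at 3 h and 1.90 at 24 h. ZNF557 had a level of -3.97 in the control and -3.49, -2.52, -2.06, -2.05 and -2.26 afterwards. Its differences were 0.49, 1.45, 1.91, 1.93 and 1.71, all above 0, and its fitted change was 1.94 ± 0.51 (SE of the slope, 6 arrays; limma adjusted p = 0.327). That of ZNF57 was 1.76 ± 0.50 (limma adjusted p = 0.345). Both lie in the first 2 runs of genes from the short-arm end.

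**Figure D2:**
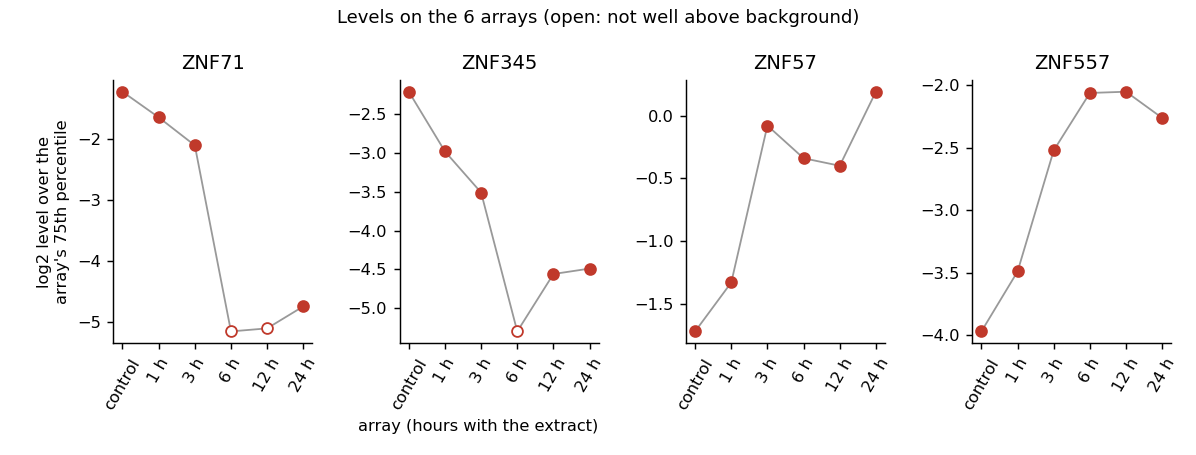
Each panel gives the level of 1 gene on the 6 arrays, as log2 of signal over the array's 75th percentile, with filled points for arrays where the probe was well above background and open points where it was not. ZNF71 runs from -1.22 to -4.74 and ZNF345 from -2.21 to -4.49, while ZNF57 runs from -1.72 to 0.19 and ZNF557 from -3.97 to -2.26, each on its own vertical scale.

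Promoter sequence is given for these 4 genes because they had the smallest p-values of the slope in the group. The 120 bases before the start site are shown, from RefSeq on build GRCh38.p14, with 4 motifs in capitals on either strand. They are the E-box CACGTG, the core GCGTG of the aryl hydrocarbon receptor's element, CCGGAAG, a core that ETS factors bind, and the core of the ZNF143 element, searched as ACTAC followed after 3 bases by TCCC. All 4 are on the plus strand. ZNF345 had 3 promoter entries and ZNF57 had 2, of which the first listed is shown, and the other genes had 1 each.
ZNF71, chr19:56595182-56595301: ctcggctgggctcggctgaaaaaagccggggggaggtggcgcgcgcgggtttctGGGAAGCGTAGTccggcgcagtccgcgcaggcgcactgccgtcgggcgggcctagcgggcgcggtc
ZNF345, chr19:36850756-36850875: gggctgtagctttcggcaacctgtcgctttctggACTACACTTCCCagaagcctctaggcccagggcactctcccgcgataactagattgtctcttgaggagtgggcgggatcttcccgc
ZNF57, chr19:2900808-2900927: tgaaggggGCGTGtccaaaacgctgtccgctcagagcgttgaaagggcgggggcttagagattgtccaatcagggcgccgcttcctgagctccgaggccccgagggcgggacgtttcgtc
ZNF557, chr19:7069583-7069702: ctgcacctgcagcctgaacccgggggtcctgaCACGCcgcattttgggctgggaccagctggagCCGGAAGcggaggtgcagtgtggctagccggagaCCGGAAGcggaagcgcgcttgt
In the entries shown, both lowered genes hold the ZNF143 core, in opposite orientations, and neither raised gene does in this window. That motif was picked after the ZNF71 promoter had been read, so its match there was fixed beforehand. The contrast between lowered and raised genes was not tested. Over 210 promoters of 166 of the genes, each from 250 bases before to 50 after the start, 19.5% hold it, against 2.24% of 35116 promoters of the table. The ETS core stands in 36.2% of them against 10.3%, the receptor core in 47.1% against 36.5% and the E-box in 4.76% against 7.26%. These are matches of letters only.

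Other genes were higher at 3 h and 24 h and measured on both arrays. At 1, 3 and 24 h ZNF181 was 0.33, 1.26 and 1.47, and ZNF585B was 0.54 at the first of these times and 1.72 at the last. ZNF146, a gene of fingers with no KRAB domain, was -0.29, 0.92 and 1.49. ZNF428 was 0.48, 0.49, 1.38, 0.90 and 1.47 over the 5 times, above the control on every treated array. ZNF600, by the probe with the highest mean level, was -0.37, 0.87, 0.96, 0.89 and 1.28. That probe shares a run with a ZNF761 probe, and the gene's probe without a shared run read 0.52, -1.02, -0.54 and 0.40 from 3 h on. ZNF653, known as a repressor of nuclear receptor SF1, was 1.11 at 24 h with all 5 differences above 0. ZNF181, ZNF146 and ZNF585B were named after their values were seen.

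A second set was highest on the dim 6 h and 12 h arrays. ZNF480 had levels of -0.06 in the control, -0.36, 0.23, 2.42, 1.67 and 0.14, so that only the 6 h and 12 h arrays stood well apart, with differences of 2.47 and 1.73. ZNF30 was 1.92 at 6 h and 1.72 at 12 h and 0.39 at 24 h. ZNF222 was 1.92, 1.77 and 1.04 at these times, and its other 2 probes gave 1.57 and 1.70 at 6 h. ZNF627 was the lowest at 6 h among the genes above background there, at -2.04, but 0.45 with normexp, and it was 0.54 at 24 h.

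Few genes stood apart at 1 h and 3 h. ZNF274, which is known to bring SETDB1 to the 3′ ends of zinc finger genes, was 0.70, 1.02, -0.86, -0.50 and 0.76 over the 5 times. ZNF556 was 0.64 at 1 h and 1.05 at 3 h and back at 0.01 by 24 h. ZNF559 was 0.68, 0.70 and 1.31 at 1, 3 and 24 h, and was not well above background at 6 h and 12 h. ZNF14 was -1.14 at 1 h and -0.37 at 3 h, and ZNF615 was -0.87 and -0.46, though its second probe read 0.07 at 3 h. ZNF581 was 0.33, -0.47, -1.05 and, on the last array, 0.66. ZNF296 was 0.60, 0.96, 0.89, 0.74 and 0.85, above the control throughout.

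Among the 125 genes measured at all times, 20 lay above the control at every time by the probe with the highest mean level and 4 below it. The same counts were not made over all genes, of which 65.1% lay above 0 at 6 h and 62.7% at 12 h. All 5 differences share 1 control array, so the split is not read as a trait of the group. Of the 4 genes below, ZNF264 and ZNF558 had 1 probe each. Other probes of ZNF562 and ZNF587 read above 0, at 1.22 and 0.14 on the 24 h array. The range of a gene's level over the 6 arrays had a median of 1.23 and ran from 0.17 to 2.78. ZNF317 was the steadiest, with levels from 0.57 to 0.74, followed by ZNF234 (range 0.45), ZNF324 (0.45) and ZNF331 (0.51), an imprinted gene. The probes with the highest mean levels were those of ZNF525, ZNF444, ZNF579 and ZNF580. At 24 h ZNF579 was -1.20. The bright ZNF525 probe was -1.21 then, but it shares a run of at least 20 bases with a probe of the ribosomal protein gene RPL39, and the gene's second probe read 0.79 at 3 h and 0.73 at 24 h, so that no direction is given for ZNF525. The ZNF444 difference at 6 h was 1.15, but -0.39 with normexp. ZNF525 was saturated on 1 array.

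In order along the chromosome the genes fell into 17 runs, taking a gap over 1 Mb between neighbours as a break. Most runs had medians close to that of the group. The fifth and sixth, from ZNF101 to ZNF676 and from ZNF91 to ZNF254, stood apart at 6 h and 12 h. Their 23 followed genes had a median of -1.02 at 6 h (n = 19) and -1.01 at 12 h (n = 20), beside 0.17 at 3 h and -0.07 at 24 h. With normexp these were -0.10 at 6 h, 9 of 19 above 0, and -0.48 at 12 h, and 4 genes were 2-fold lower at each time, against 10 in the main scaling. Of the 13 genes at least 2-fold lower at 6 h, 10 lay in these runs, and so did 10 of the 13 at 12 h. The first run, from ZNF554 to ZNF77, had the highest medians among runs of at least 5 genes at 6 h and 12 h, 1.28 and 1.02 (n = 5). With normexp it had 0.84 and 1.09, below the 1.37 and 1.12 of the run from ZNF575 to ZNF296.

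**Figure D3:**
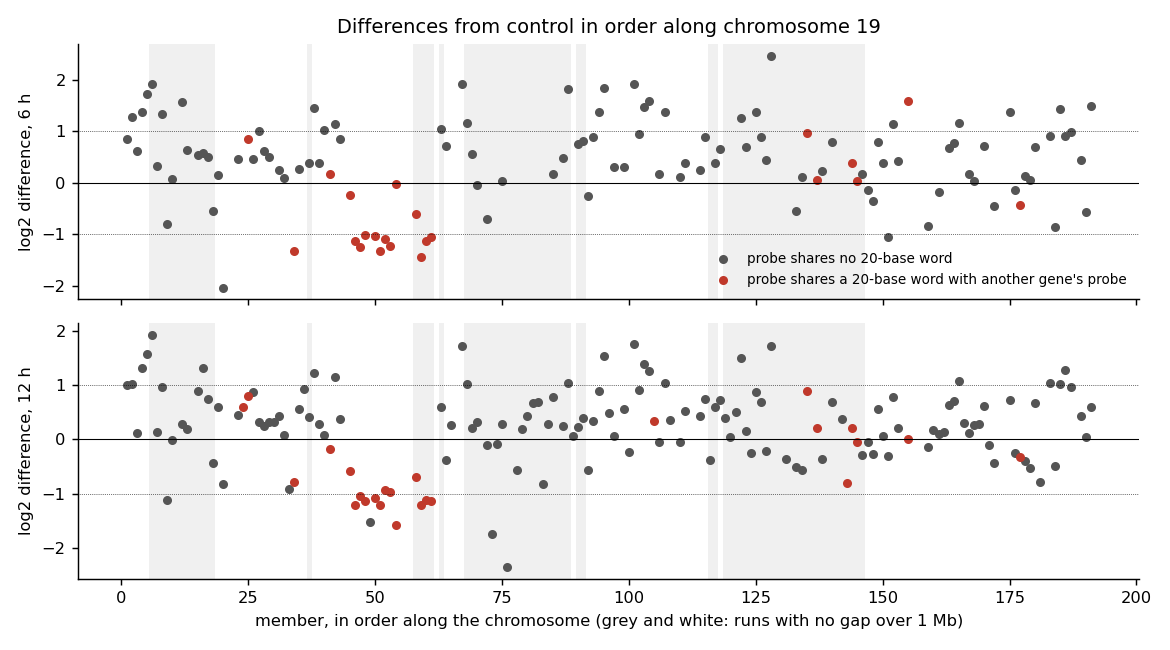
Each point is the log2 difference of 1 gene at 6 h (top) or 12 h (bottom), placed by its order along chromosome 19, with red for genes whose probe shares a 20-base run with another gene's probe and dotted lines at 2-fold. The red points of the fifth and sixth runs lie mostly near -1 at both times, while grey points of the same runs lie mostly above 0.

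Within these runs the values divided by the probe's sequence. For 15 genes the probe shared a run of 20 bases with another gene's probe, and their median differences over the 5 times were -0.21, 0.22, -1.07, -1.09 and 0.01. At 6 h, 10 of 14 measured were at least 2-fold lower and 1 lay above 0. At 12 h, 9 of 14 were at least 2-fold lower and none lay above 0. The 8 genes with no such run had a median of 1.02 at 6 h, all 5 measured above 0, and 0.33 at 12 h, 5 of 6 above 0. The 6 h values leave out ZNF431, ZNF257 and ZNF676, which were not well above background on that array. ZNF431 had a level of -2.13 in the control and -3.66 at 6 h, and its 12 h difference was -1.52. The filter thus removes dim readings from this side of the contrast. The difference between both kinds of probe was noticed in these data and has no test.

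The probes printed above were chosen for their low values, so their likeness to each other is no support for the pattern. ZNF493 had levels of 1.41 in the control and 1.23, 1.66, 0.08, 0.19 and 1.56, so that the 6 h and 12 h arrays alone were low. ZNF254 had 2.13 in the control and 1.98, 2.39, 1.08, 1.00 and 2.47. In both cases the arrays at 1, 3 and 24 h stayed within 0.33 of the control and those at 6 h and 12 h lay at least 1.05 below it. ZNF675 was -1.45 and -1.21, ZNF100 -1.23 and -0.98, ZNF429 -1.09 and -0.94, ZNF430 -1.24 and -1.04, and ZNF681 -1.14 and -1.11 at 6 h and 12 h. Sharing probes that are not printed differed more. At these times ZNF253 was 0.18 and -0.17, ZNF626 -0.23 and -0.59, and ZNF43 -0.02 and -1.59. ZNF66 was -1.14 and -1.21, ZNF714 -1.02 and -1.13, and ZNF708 -1.04 and -1.08.

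Probe brightness went with this pattern. Of the 15 genes, 9 had a control level at or above the array's 75th percentile, and these lay between -1.45 and -1.02 at 6 h and between -1.22 and -0.94 at 12 h. The 6 others had medians of -0.23 at 6 h and -0.70 at 12 h (n = 5 each). The rest of the chromosome 19 genes with a control level at or above the 75th percentile were 18, and their medians were 0.39 at 6 h and 0.14 at 12 h, with 1 and 0 of them at least 2-fold lower. The pattern was also as large with quantile and cyclic loess normalization, at -1.11 and -1.17 at 6 h and -1.11 and -1.13 at 12 h, and smaller with normexp, at -0.64 and -0.90.

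**Figure D4:**
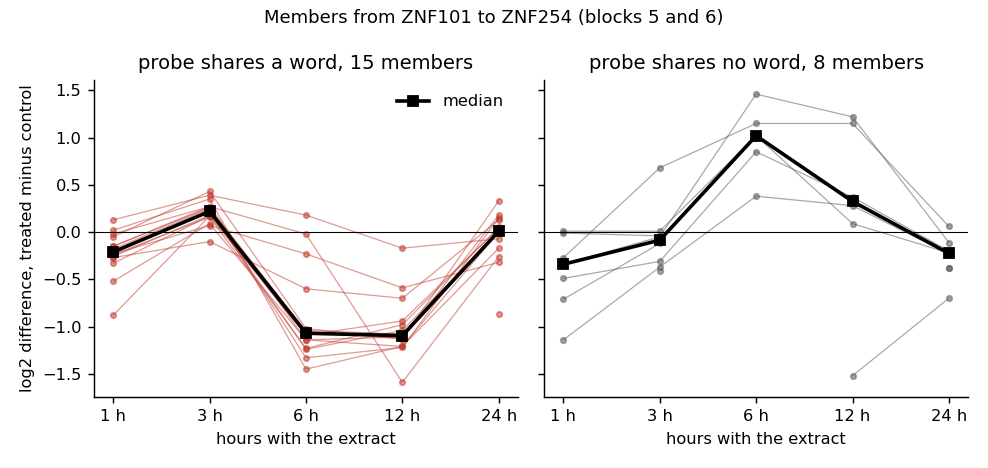
Thin lines are the log2 differences of single genes of the fifth and sixth runs at the 5 times, split by whether the probe shares a 20-base run, and black squares are the medians. The 15 genes of the left panel have medians of -1.07 at 6 h and -1.09 at 12 h and return to 0.01 at 24 h. The 8 of the right panel have 1.02 (5 measured), 0.33 (6 measured) and -0.23.

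Second probes of the same genes went part of the way. At 12 h, 5 genes of these runs were measured by both kinds of probe, and the probes without a shared run lay below 0 in 5 of 5, with a median of -0.61 against -1.13 for the sharing probes. For ZNF493 the probe without a shared run gave -0.48 at 12 h, against -1.22 and -1.23 for the 2 sharing probes. For ZNF714 it gave -1.68, lower than the -1.13 of the sharing probe. At 6 h only ZNF429 (-1.09 and -0.90) and ZNF626 (-0.23 and 0.38) could be read both ways.

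Elsewhere on the chromosome, genes whose probe shared a run were mostly not so low. The 11 genes of other runs whose probe shared one had medians of 0.22 at 6 h (n = 8) and 0.21 at 12 h, and the 139 that shared none had 0.54 and 0.33. Of the 11, 6 lay above 0 at 6 h and 7 at 12 h. Among the others, ZNF709 was -1.32 and -0.78. ZNF665 was -0.81 at 12 h and was not well above background at 6 h. Of the ZNF genes of other chromosomes that shared a run with a chromosome 19 probe, 8 were measured at 6 h, with a median of -0.13 and 4 above 0, and 10 at 12 h, with a median of -0.81 (0.46 and 0.20 with normexp). They spread widely. ZNF92 was -1.23 at 6 h and -1.04 at 12 h, ZNF680 -0.99 and -1.16, and ZNF117 -1.92 and -1.61, while ZNF138 was 1.53 and 0.94 and ZNF10 0.79 and 0.69. How much of a signal in these probes comes from the named gene cannot be told apart from that of its near-identical relatives. ZNF91, known to repress SVA retrotransposons, was -0.60 and -0.70 at 6 h and 12 h by a probe sharing 21 bases. ZNF93, known to act on L1 elements, was 0.85 and 0.37 by a probe sharing none.

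Several genes had more than 1 probe, and these did not always read alike. At 24 h, 60 genes had a pair of measured probes, which lay at least 2-fold apart in 12 and on opposite sides of 0 in 20. The share of all genes with such gaps was not counted. The error SD from pairs at 24 h was 0.548 for this group, against 0.686 over all 4818 genes with a pair. ZNF587 had the widest gap. Its brightest probe read -0.14, -0.25 and -0.74 at 6, 12 and 24 h, a second read -2.56, -2.82 and -2.74, and the third 0.45, 0.23 and 0.14. ZNF585A read 1.24 at 24 h by its brightest probe and -1.13 by another, and -0.82 as a mean of its probes. ZNF708 read 0.02, 1.58 and -0.61 at 24 h by its 3 measured probes. ZNF600 read 0.96 and 0.82 at 6 h by both probes with shared runs and -1.02 by the one without. No direction is given for ZNF587, ZNF585A or ZNF708 as genes, nor for ZNF600 at 6 h and 12 h.

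**Figure D5:**
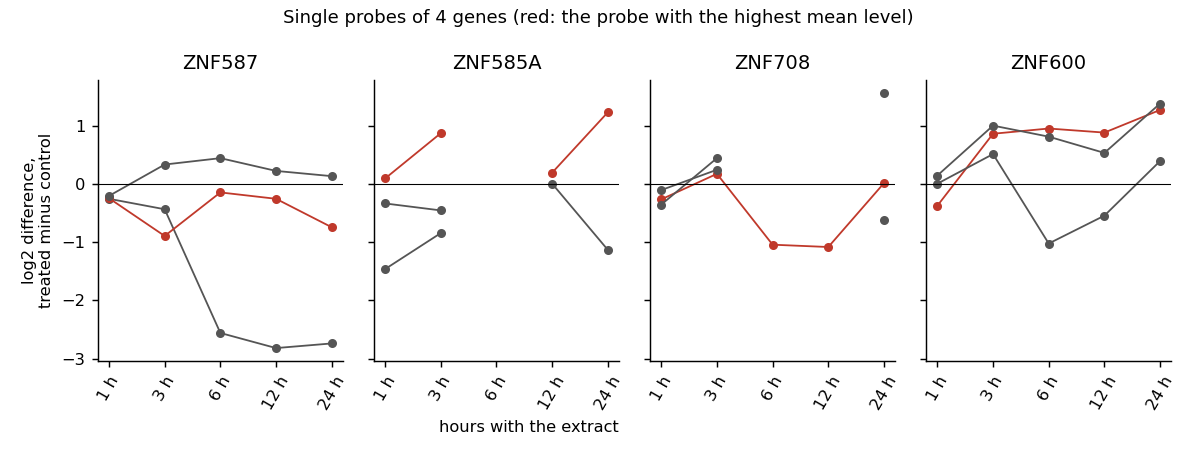
Each line is 1 probe of the named gene, as its log2 difference from the control at each time measured, with the brightest probe in red. The probes of ZNF587 end at -2.74, -0.74 and 0.14 at 24 h, and those of ZNF585A at 1.24 and -1.13.

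A list of 20 genes of the repression machinery that KRAB proteins work through was read beside them. None was 2-fold apart on the first pair of treated arrays, and on the others 5, 3 and 1 were higher and 1, 0 and 1 lower, of 20, 19 and 20 measured. Of all genes 22.9%, 13.0% and 7.29% were higher and 10.1%, 7.80% and 9.25% lower at these times. Their medians were -0.25, -0.12, -0.07, 0.00 and -0.12, and none had an adjusted p under 0.05 for the slope in limma's test. TRIM28, the corepressor itself, had levels of 3.64 in the control and 3.80, 3.24, 3.39, 3.09 and 3.35, all within 0.55 of the control. SETDB1, the methyltransferase, was 1.07 at 6 h and 0.89 at 12 h and -0.30 at 24 h. Of the HP1 genes, CBX3 was 1.32 and CBX5 1.51 at 6 h, and CBX1 -0.04. The lowest was UHRF1, which guides maintenance DNA methylation, at -2.49 at 24 h with a fitted change of -2.14 (limma adjusted p = 0.405).

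The filter itself set which genes could be followed. Of the 191 genes with a usable probe, 125 were well above background on all 6 arrays, 35 on 5, 9 on 4 and 4 on 3. Just inside the filter lay ZNF132, ZNF257, ZNF568 and ZNF586, on 3 arrays, and just outside lay 7 genes on 2 arrays, among them ZNF208 and ZNF28. A further 5 were above background on 1 array and 6 on none, among them ZNF536 and ZSCAN18.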

How the data were processed

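The scanner files hold intensity per spot, per the file headers, with a background-corrected processed signal among the columns. As deposited, intensity was unscaled across arrays. The authors' deposited value table, also linear intensity, was an alternative and held 284 of the 301 member probes. The build of the probe coordinates is not stated in the files used, so these served for the choice and order of genes only. The labels name the dye Cy5, while the file headers give the green channel.

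Spots were averaged as log2 of the processed signal per probe, 1639 control spots per array and flagged spots were left out, and each array's 75th percentile was subtracted. A gene was its probe with the highest mean level. Probes were named through RefSeq accessions (26808 probes with 1 symbol, 62 with several, 14130 with none), and 2 probes of another name that shared a symbol with a member were left out. Differences need a gene to be well above background on the pair of arrays and on at least 3 of 6, and counts of 2-fold differences left out saturated genes. Bounds of a dim probe take the higher of its own signal and the lowest signal among probes well above background on that array. The slope of the level on log2(hours + 1) was tested in limma 3.58.1 (R 4.3.3), with Benjamini-Hochberg adjustment over 13618 genes. On simulated data for this fit, 200 of 13618 genes were given a log2 change of 4 along a straight line. Of these, 76.0% were recovered at a limma adjusted p under 0.05, and 13 unchanged genes also passed. Smaller changes were not simulated, and the median fitted change of the group was 0.40.

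The members, the gene lists and the tests were chosen with earlier results of these data known. Genes named are ZNF71, the 3 most raised and lowered at 1, 6 and 12 h and the 5 at 3 and 24 h among those that also differed 1.5-fold, with the same sign, at the time before or after, and the 6 with the smallest p of the slope. Also named are the 4 brightest, the 4 steadiest and the 4 with the least agreement between probes. Other genes named were chosen after their values were seen. Protein sequences were not used here, and 1 probe sequence is not reported here. No slide or scan column was used, so no batch term was fitted. Precision is limited by the 6 arrays, and p-values measure scatter about a line.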

Additional observations from a re-analysis of the deposited data

Results flagged for a closer look

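ZNF575 differed in direction between times. It was 1.07 at 1 h and -1.33 at 24 h, as log2 of treated over control, with a control level of -0.60 and treated levels of 0.47, 0.18, -0.86, -1.16 and -1.93 in order of time. The difference between times was not tested, since each time had 1 array. Its second probe was -0.13 at 1 h and -0.64 at 24 h.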

How the results depend on the processing

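No paired analysis was possible because each group held 1 array and the replicate number was given in accession order. A slide or scan as a block was not run, as no such column was used. Medians of the group kept their sign in every alternative run at 3 h, 6 h and 24 h, and the median minus that of all genes, 0.09 at 6 h, was 0.95 there with normexp. Counts of members at least 2-fold higher or lower moved by over 1.5 times as follows. At a 1.5-fold threshold they were 7 and 14 at 1 h (8% and 7% of all genes) and 41 and 5 at 3 h (11% and 11%). At 6 h, 54 were higher (39%). They were 51 and 23 at 12 h (31% and 16%) and 58 and 14 at 24 h (19% and 19%). At 3-fold the counts were 0 and 0 at 1 h (0.183% and 0.0763% of all genes), 1 and 0 at 3 h (0.484% and 0.584%) and 8 and 1 at 6 h (7.80% and 4.17%). They were 4 and 3 at 12 h (2.44% and 3.08%) and 3 and 3 at 24 h (1.65% and 3.10%). With normexp they were 0 and 0 at 1 h (0.847% and 0.298% of all genes), then 1 and 1, 57 and 7, 59 and 4, and 4 higher at 24 h. Shares of all genes for these later times are given above. In the authors' deposited table they were 0 and 1 at 1 h (1.63% and 0.514%), 3 higher at 3 h (2.47%) and 7 higher at 24 h (5.79%). For genes above background on all 6 arrays, 1 was lower at 1 h (0.549% of all genes so filtered). Of these, 4 were higher and 1 lower at 3 h (2.78% and 2.49%), and 10 higher and 4 lower at 24 h (7.20% and 8.05%). The mean of probes gave 0 higher at 1 h (2.11% of all genes) and 1 lower at 3 h (2.33%). At 12 h, 13 were higher with the percentile over probes above background on all arrays, and 12 higher and 21 lower with the median of all genes taken off. At 24 h, 28 were higher with cyclic loess and 26 with quantile normalization. Without probes that share a 20-base run, an alternative added after seeing the data, 2 were lower at 6 h and 4 at 12 h. Of all genes 10.1% and 7.80% were lower at these times. Members with an upward slope at an unadjusted p under 0.05 were 3 with hours as the time (2.09% of all genes), 3 with normexp (1.06%) and 40 without the 6 h and 12 h arrays (10.7%), where 4 passed adjustment in limma. Members with a downward slope were 2 among genes above background on all 6 arrays (5.42% of all genes so filtered) and 3 with no filter on dim probes (3.88%). With normexp there were 0 (2.50%) and with quantile normalization 3 (5.59%). Leaving out 1 array at a time gave 4 to 29 upward and 3 to 7 downward, the latter beside 3.48% to 7.99% of all genes. The upward extremes were the fits lacking 1 h (4, with 1.83% of all genes) and 24 h (29, with 12.8%). Adjusted limma p-values in these fits were no lower than 0.0564 (without the 6 h array). Single genes reversed with normexp: ZNF345 at 12 h (0.22), ZNF627 at 6 h (0.45), ZNF431 at 12 h (0.15), ZNF558 at 12 h (0.32) and ZNF444 at 6 h (-0.39), and ZNF585A at 24 h with the mean of probes (-0.82). The cause of these changes was not tested. The dim 6 h array limits the comparison to 125 genes.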
